A study of Mus musculus with 48 samples.

Results

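The 10 integrin genes *Itga1*, *Itga2*, *Itga5*, *Itga6*, *Itga7*, *Itga8*, *Itga9*, *Itgav*, *Itgb1* and *Itgb3* were followed through 4 stromal cell types of mouse lymph nodes, in naive mice and in mice carrying Eμ-*Myc* lymphoma. They were chosen by symbol from the platform's probe annotation, which lists 23 probes for them, and each gene was read from its brightest probe. All 10 were among the 13163 genes bright enough to be tested. Every level below is a log2 expression value on the array, and a difference of 1 is a 2-fold difference. Levels were compared between cell types and between states for the same probe, never between genes.

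The arrays held fibroblastic reticular cells (FRC, CD31-gp38+), blood endothelial cells (BEC, CD31+gp38-), lymphatic endothelial cells (LEC, CD31+gp38+) and the double negative fraction (DN, CD31-gp38-), each from naive wild-type controls and from animals injected intravenously with 200000 to 400000 Eμ-*Myc* lymphoma B cells, in which tumor cells reached on average 4 to 10% of the lymph node lymphocytes. The mice were wild-type males and females of 8 to 12 weeks. Cells of cervical, axillary, brachial and inguinal nodes were depleted of CD45+ leukocytes and sorted, and each array received 80 ng RNA pooled from 4 to 6 sorts. The 8 groups had 3 biological replicates with 2 array strips each, which makes 24 replicates and 48 strips. The labels do not tie a replicate to single animals, so the p-values measure the spread between these pools. A bulk level cannot separate fewer expressing cells from less RNA per cell.

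Integrins are receptors of an alpha and a beta chain that anchor cells to the extracellular matrix and couple it to the actin cytoskeleton. Most of the alpha chains followed here (*Itga1*, *Itga2*, *Itga5*, *Itga6*, *Itga7*, *Itga8* and *Itga9*) pair with the beta chain *Itgb1*, whereas *Itgb3* pairs with *Itgav* in stroma and with *Itga2b* in platelets. *Itga1* and *Itga2* bind collagens, *Itga6* and *Itga7* bind laminins, *Itga5*, *Itga8* and *Itgav* bind ligands with an RGD motif such as fibronectin, and *Itga9* binds tenascin-C and osteopontin. In lymph nodes, FRCs build and wrap the collagen-rich conduits, and endothelial cells rest on laminin-rich basement membranes.

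The sorted fractions carried their defining markers. The mean log2 value of 10 FRC markers was 13.41 to 13.92 in FRC replicates, that of 9 BEC markers 12.49 to 13.02 in BECs, and that of 8 LEC markers 13.10 to 13.40 in LECs. Several libraries of the DN and BEC groups stood apart from their replicates. Replicate 2 of naive DN had an FRC marker mean of 12.83 against 10.43 and 10.38 in the other naive DN replicates, and an LEC marker mean of 9.61 against 7.58 and 7.44. Replicate 3 of tumor DN was alike, with an FRC marker mean of 12.08 against 10.60 and 10.90 and an LEC marker mean of 9.61 against 8.36 and 8.52. Replicate 2 of naive BEC had a pericyte and smooth muscle marker mean of 9.64 against 7.94 and 8.61. Its Schwann cell marker mean was 8.45 against 6.14 and 6.17, and its epithelial marker mean 9.37 against 6.92 and 7.43. In tumor BECs replicates 2 and 3 had FRC marker means of 10.40 and 9.90 against 8.08 in replicate 1. Below, the odd libraries are replicate 2 of naive DN and of naive BEC. Markers of leukocytes were also present, with a pan-leukocyte mean of 8.46 to 8.81 in naive DN and 9.35 to 12.15 in tumor DN, and of 8.63 to 9.02 in naive BECs and 8.54 to 11.51 in tumor BECs. Each cell type lay on a slide of its own and the naive and tumor arrays at fixed places of each slide, so that slide and cell type, and place and state, cannot be told apart.

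**Figure D1:**
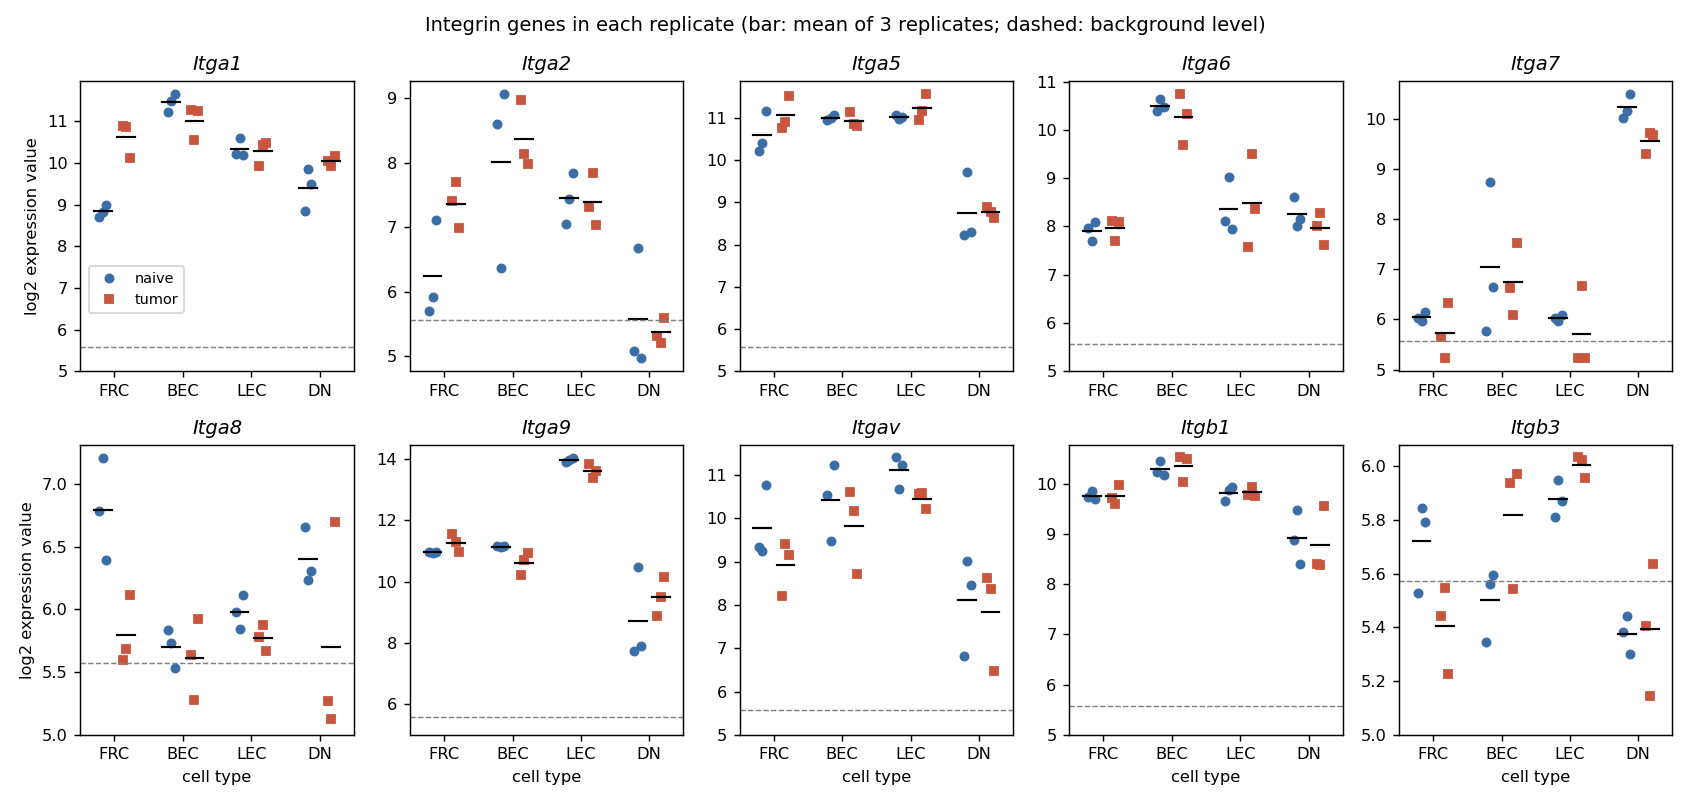
Log2 expression value of each integrin gene (vertical axis, own scale per panel) in the 3 naive (circles) and 3 tumor (squares) replicates of FRC, BEC, LEC and DN cells, with the mean as a bar and the background level of 5.57 as a dashed line. *Itga1* of tumor FRCs sits between 10.12 and 10.88, above the naive FRC replicates at 8.71 to 9.0, and *Itga7* is highest in DN cells and *Itga9* in LECs in both states.

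In naive mice several integrins differed between the 4 cell types. BECs were highest for *Itga6* and *Itga1*, LECs for *Itga9*, and DN cells for *Itga7*, while DN cells were lowest for *Itga5*, *Itga9*, *Itgav* and *Itgb1*. Of the 60 comparisons of a gene between naive cell types, 31 passed limma with Benjamini-Hochberg adjustment over all tested genes, where 38.8% of all comparisons of all genes did. By pair of cell types, 4 of 10 genes passed between FRCs and BECs (all genes 41.1%), 3 between FRCs and LECs (33.7%), 5 between FRCs and DN cells (38.7%), 3 between BECs and LECs (22.2%), 8 between BECs and DN cells (52.2%) and 8 between LECs and DN cells (45.1%). Comparisons with DN cells were 30 of the 60 and made up 21 of the 31. Over all genes the pairs of DN cells with FRCs, BECs and LECs gave 5088, 6869 and 5943 of 30672 calls. Without the naive DN and BEC libraries that stood apart, 34 of the 60 passed. Of the 31 calls, 14 passed under every alternative.

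**Figure D2:**
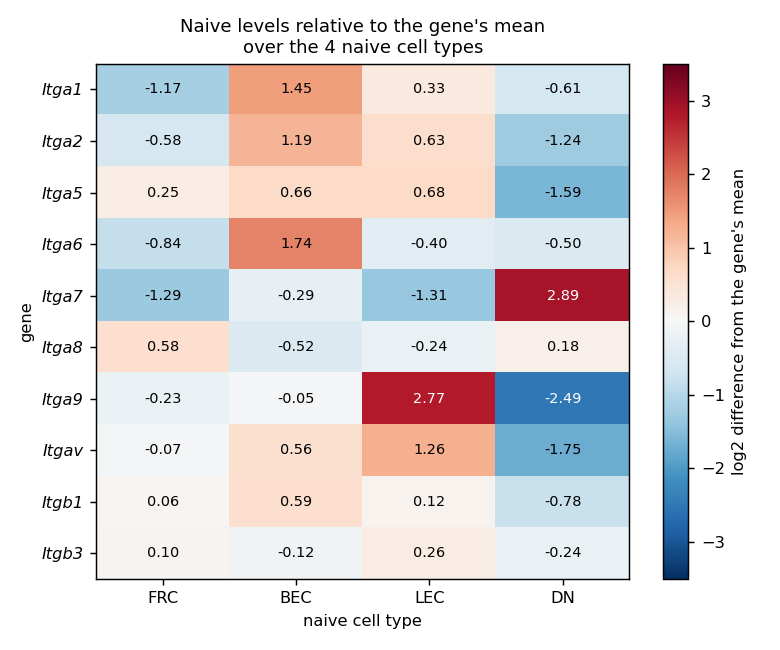
Difference of each naive cell type's mean log2 value from the gene's mean over the 4 naive cell types, for 10 integrin genes (rows) in FRC, BEC, LEC and DN cells (columns). The largest departures are *Itga7* in DN cells (2.89) and *Itga9* in LECs (2.77) and in DN cells (-2.49).

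Among the collagen receptors, *Itga1* was graded. Its level in naive BECs was 11.22, 11.50 and 11.66, in LECs 10.23, 10.60 and 10.19, in DN cells 8.85, 9.86 and 9.49, and in FRCs 8.71, 8.82 and 9.0. BECs lay above LECs by 1.12 ± 0.26 (SE, 2.18-fold, adjusted p = 0.00327), and LECs above DN cells by 0.94 ± 0.26 (adjusted p = 0.00624). DN cells and FRCs, the lowest pair, did not pass (FRC minus DN -0.55 ± 0.26, adjusted p = 0.099). BECs exceeded FRCs 6.14-fold (adjusted p = 9.56e-08). The step from LECs to DN cells had an adjusted p of 0.128 with the mean of both *Itga1* probes, 0.0515 in a fit of the 2 groups alone, and 0.0543 without naive DN replicate 1, whereas the other called differences of *Itga1* between naive cell types passed under every alternative. On the second, dimmer *Itga1* probe BECs again exceeded each other type, but FRCs, LECs and DN cells lay at 5.06 to 5.92, around background, and did not separate.

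*Itga2*, the other collagen-binding chain, was at 8.60, 6.37 and 9.06 in naive BECs, 7.06, 7.45 and 7.85 in LECs, 5.71, 5.92 and 7.11 in FRCs, and 5.09, 6.68 and 4.98 in DN cells. Only the replicate of naive DN that carried FRC and LEC markers rose above the background level of 5.57. The low BEC value belonged to the replicate with pericyte, Schwann cell and epithelial markers. BECs were above DN cells 5.38-fold (adjusted p = 0.00119) and above FRCs 3.40-fold (adjusted p = 0.0152), and LECs above DN cells 3.65-fold (adjusted p = 0.0103). Neighbours in that order, BECs and LECs, LECs and FRCs, and FRCs and DN cells, did not pass (adjusted p = 0.538, 0.106 and 0.367). Without the odd libraries the BEC excess was 3.80 log2 units over DN cells and the FRC minus BEC difference -2.58, instead of 2.43 and -1.76, and these 3 neighbours passed as well (adjusted p = 0.0124, 0.00912 and 0.0138). The BEC to DN call was lost in a fit of the 2 groups alone (adjusted p = 0.0515). The step from BECs to FRCs had an adjusted p of up to 0.109 when another naive replicate of either type was left out, and that from LECs to DN cells 0.0526 and 0.0537 without naive DN replicate 1 or 3.

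Of the laminin receptors, *Itga6* was highest in BECs and *Itga7* in DN cells. *Itga6*, which also forms hemidesmosomes in epithelia, was at 10.39, 10.64 and 10.48 in naive BECs. The other naive groups, LECs (8.10, 9.02 and 7.95), DN cells (8.61, 8.0 and 8.16) and FRCs (7.97, 7.69 and 8.09), gave no call among themselves (adjusted p = 0.85 for LECs and DN cells, 0.406 for FRCs and LECs and 0.496 for FRCs and DN cells). BECs were higher than LECs 4.43-fold (adjusted p = 0.000249), than DN cells 4.74-fold (adjusted p = 5.34e-05) and than FRCs 6.01-fold (adjusted p = 1.13e-05). Both other *Itga6* probes gave the same 3 calls.

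*Itga7*, known from skeletal and smooth muscle, was at 10.03, 10.17 and 10.50 in naive DN cells, but at 6.04, 5.97 and 6.14 in FRCs and 6.03, 5.96 and 6.09 in LECs, within 1 log2 unit of background. DN cells exceeded LECs 18.5-fold (adjusted p = 3.37e-06), FRCs 18.2-fold (adjusted p = 8.1e-06) and BECs 9.07-fold (adjusted p = 6.13e-05). The 3 naive BEC values of 5.77, 8.75 and 6.65 were far apart. The high one was in the replicate that carried pericyte, Schwann cell and epithelial markers. Without it and the odd DN library, the BEC minus DN difference was -4.06 log2 units instead of -3.18, and it was -2.54 without naive BEC replicate 1. The *Itga7* differences rest on 1 probe. The gene's other probe lay below background in every group, with a mean of 4.91 in naive DN cells. The pericyte and smooth muscle list (13 genes) was also highest in the DN fraction. Its means were 10.90 to 11.55 in naive DN cells, 9.41 to 10.00 in naive FRCs, 8.02 to 8.74 in naive LECs and 7.94 to 9.64 in naive BECs. So was the Schwann cell list (3 genes), at 11.18 to 12.16 in naive DN cells, 9.79 to 10.46 in FRCs, 9.86 to 10.11 in LECs and 6.14 to 8.45 in BECs. The part of either list in the *Itga7* level was not tested.

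Of the receptors for RGD ligands, *Itga5*, the fibronectin receptor chain, was at 10.94 to 11.07 in naive BECs, 10.97 to 11.06 in LECs and 10.23 to 11.18 in FRCs. No pair of these 3 passed (adjusted p = 0.982 for BECs and LECs, 0.337 for FRCs and LECs and 0.329 for FRCs and BECs). In DN cells it was at 8.23, 9.72 and 8.30, lower than in LECs 4.81-fold (adjusted p = 8.89e-06), than in BECs 4.77-fold (adjusted p = 7.22e-06) and than in FRCs 3.60-fold (adjusted p = 0.000153). The second *Itga5* probe passed in the same direction in each of these comparisons with DN cells, and also between BECs and FRCs (adjusted p = 0.0444). *Itgav* had the same order, at 11.41, 10.68 and 11.24 in naive LECs, 10.55, 9.49 and 11.22 in BECs, 9.34, 9.25 and 10.76 in FRCs and 6.83, 9.02 and 8.47 in DN cells. LECs exceeded DN cells 8.03-fold (adjusted p = 0.000792), and BECs exceeded DN cells 4.97-fold (adjusted p = 0.00501). In log2 units the LEC excess over DN cells was 3.0 and 2.36 without naive DN replicate 1, and that of BECs was 2.31, 1.67 without naive DN replicate 1 and 3.24 without the odd DN and BEC libraries. The excess of FRCs over DN cells (3.20-fold, adjusted p = 0.0435) had an adjusted p of up to 0.261 when 1 replicate was left out, and no other *Itgav* probe passed for it. The other 3 *Itgav* pairs did not pass.

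*Itga8*, the mesenchymal receptor for nephronectin, was dim. It reached 6.79, 7.21 and 6.39 in naive FRCs and 6.66, 6.24 and 6.30 in DN cells, against 5.98, 5.85 and 6.11 in LECs and 5.83, 5.73 and 5.54 in BECs. FRCs were above BECs 2.14-fold (adjusted p = 0.00656) and above LECs 1.76-fold (adjusted p = 0.0442), and the FRC to DN difference did not pass (adjusted p = 0.321). The FRC to LEC difference missed the threshold without naive FRC replicate 1 or 2 and without any 1 of the LEC replicates (adjusted p 0.0676 to 0.196). The second *Itga8* probe passed in both comparisons and over DN cells as well (adjusted p = 0.000576), with all 3 other types below background on it (4.70 to 5.09). *Itgb3* stayed near background in all groups, between 5.15 and 6.04. In LECs it was above background in 3 of 3 naive replicates (5.81, 5.95 and 5.87) and in DN cells in none (5.38, 5.44 and 5.30), which makes LECs at least 1.24-fold higher (adjusted p = 0.0104). On the first or second strip alone this difference did not pass (adjusted p = 0.168 and 0.0818), and *Itgb3* has only 1 probe. No other pair passed for *Itgb3*.

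*Itga9* set LECs apart. It was at 13.91, 13.97 and 14.05 in naive LECs, 11.15 in all 3 BEC replicates, 10.97, 10.95 and 10.98 in FRCs and 7.75, 10.47 and 7.91 in DN cells, the middle value belonging to the odd DN library. LECs exceeded BECs 7.08-fold (adjusted p = 0.000159), FRCs 8.04-fold (adjusted p = 3.7e-05) and DN cells 38.5-fold (adjusted p = 3.62e-08). BECs and FRCs did not pass (adjusted p = 0.807), and both exceeded DN cells (5.43-fold and 4.79-fold, adjusted p = 0.000232 and 0.000946). Without the odd DN library the excess over DN cells was 6.15 log2 units in LECs, 3.32 in BECs and 3.14 in FRCs, instead of 5.27, 2.44 and 2.26. The 2 other *Itga9* probes gave the LEC excess over each of the other types (7.84 to 9.10 in naive LECs). Outside LECs they lay at 4.55 to 5.95 in naive mice, around background, and passed in no comparison of BECs or FRCs with DN cells. The call of *Itga9* in BECs and FRCs over DN cells rests on 1 probe, for which the platform annotation gives no accession.

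*Itgb1*, the shared beta chain, was at 10.23, 10.45 and 10.17 in naive BECs, 9.65, 9.87 and 9.93 in LECs, 9.73, 9.84 and 9.69 in FRCs, and 8.88, 9.47 and 8.40 in DN cells. The 3 other types exceeded DN cells by 1.37 ± 0.27 (BECs, adjusted p = 0.000286), 0.90 ± 0.27 (LECs, adjusted p = 0.0101) and 0.84 ± 0.27 log2 units (FRCs, adjusted p = 0.0186). The second *Itgb1* probe passed in each of them. The LEC and FRC differences did not pass without naive DN replicate 3 (adjusted p = 0.0736 and 0.125), nor did that of FRCs without naive FRC replicate 2 or naive DN replicate 1 (adjusted p = 0.0573 and 0.0557). No pair of BECs, LECs and FRCs passed (adjusted p = 0.242 for BECs and LECs, 0.124 for FRCs and BECs and 0.893 for FRCs and LECs).

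In lymphoma-bearing mice, 2 integrins passed, both in FRCs: *Itga1* was 3.43-fold higher and *Itga8* 2.00-fold lower. *Itga8* lay close to background there, and its call was lost under several alternatives. The calls were 2 of 40 comparisons of a gene between the states, near the 5.96% of all genes' comparisons that passed. Of the 10 genes, 1 was higher and 1 lower in tumor FRCs, where 6.38% of all genes were higher and 4.10% lower (10.5% together). None passed in BECs, LECs or DN cells, where 5.06%, 0.912% and 7.37% of all genes did. At an unadjusted p under 0.05, 3 genes passed in FRCs, 1 in BECs, 0 in LECs and 2 in DN cells. The median change of the 10 genes was 0.03 in FRCs, -0.17 in BECs, -0.06 in LECs and -0.18 in DN cells, against -0.03, -0.04, -0.0020 and -0.07 over all genes.

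**Figure D3:**
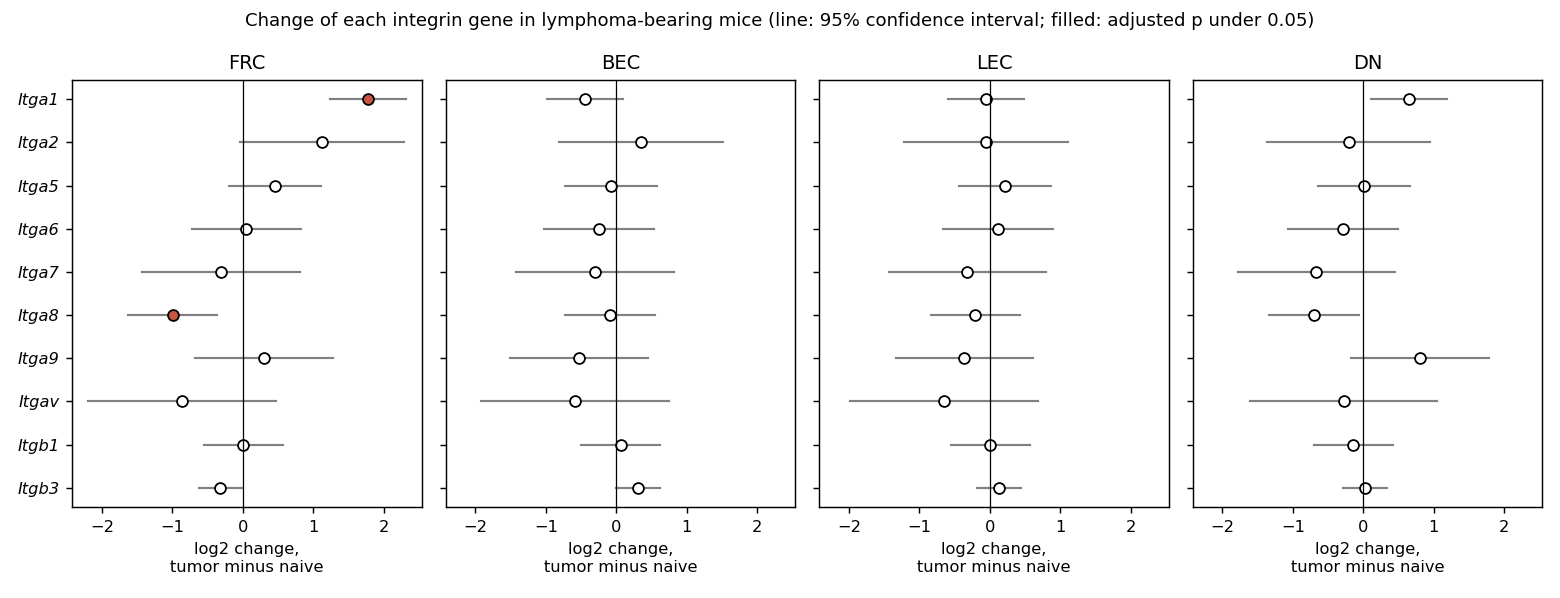
Log2 change of each integrin gene (tumor minus naive) in FRC, BEC, LEC and DN cells with its 95% confidence interval; filled points passed at an adjusted p under 0.05. In FRCs *Itga1* (1.78) and *Itga8* (-1.0) are filled, and no gene is filled in the other cell types.

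*Itga1* in FRCs went from 8.71, 8.82 and 9.0 in naive mice to 10.88, 10.86 and 10.12 in tumor mice. All 3 tumor replicates were above all naive ones. The change was 1.78 ± 0.26 log2 units (SE, 95% confidence interval 1.23 to 2.32, adjusted p = 0.000308), and it was 1.30 to 2.03 over the alternatives. The methods' t-test gave an adjusted p of 0.0504. The second, dimmer *Itga1* probe moved the same way, from 5.48, 5.28 and 5.36, none above background, to 6.42, 6.53 and 5.62, at least 1.54-fold higher (adjusted p = 0.061 over all kept probes). The means were 8.85 ± 0.14 and 10.62 ± 0.44 (SD, n = 3).

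The rise of *Itga1* was compared with its change in the other cell types. In BECs it was at 11.22, 11.50 and 11.66 in naive and 11.27, 10.54 and 11.25 in tumor mice, a change of -0.44 ± 0.26 (adjusted p = 0.366). In LECs it changed by -0.06 ± 0.26 (adjusted p = 0.998). The change in FRCs exceeded that in BECs by 2.22 ± 0.37 log2 units (adjusted p = 0.00528) and that in LECs by 1.83 ± 0.37 (adjusted p = 0.0206). These were 2 of 60 such differences that passed for the integrins, where 0.58% of all genes' differences did (0.927% for FRCs against BECs and 0.608% for FRCs against LECs). The difference from LECs did not pass without naive FRC replicate 1 or 2, tumor FRC replicate 1 or 2, naive LEC replicate 2 or tumor LEC replicate 1 (adjusted p = 0.0564 to 0.0842). On the second *Itga1* probe the differences were 1.14 (BECs) and 0.98 (LECs), and neither passed (adjusted p = 0.195 and 0.293 over all kept probes). For the brightest probe, replicate number as a block gave an adjusted p of 0.0651 for the difference from BECs and 0.0996 for that from LECs. On the first strip alone the difference from LECs had an adjusted p of 0.0946.

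In DN cells *Itga1* was at 8.85, 9.86 and 9.49 in naive and 10.05, 9.92 and 10.17 in tumor mice. The groups did not overlap, but the change of 0.65 ± 0.26 did not pass (adjusted p = 0.135). Without naive DN replicate 2 it was 0.88 ± 0.27 (adjusted p = 0.0355), and without tumor DN replicate 3 as well, which carried the same markers, 0.82 ± 0.30 (adjusted p = 0.0547). The difference between the FRC and DN changes, 1.13 ± 0.37, did not pass (adjusted p = 0.147; 1.25% of all genes passed in that comparison).

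*Itga8* in FRCs went the other way, from 6.79, 7.21 and 6.39 in naive to 5.59, 5.69 and 6.12 in tumor mice. All tumor replicates were below all naive ones, though close to background. The change was -1.0 ± 0.30 log2 units (95% confidence interval -1.63 to -0.36, adjusted p = 0.0405). The second *Itga8* probe fell as well, from 5.75, 5.6 and 5.73 to 5.4, 4.93 and 4.76, where it was not above background in any tumor replicate (at least 1.09-fold lower, adjusted p = 0.017 over all kept probes). The call of the brightest probe did not pass without naive FRC replicate 1 or 2 or tumor FRC replicate 1 or 2 (adjusted p 0.115 to 0.181), nor with either bead file background setting or on either strip alone. In DN cells *Itga8* was at 6.66, 6.24 and 6.30 in naive and 5.27, 5.12 and 6.70 in tumor mice, a change of -0.70 ± 0.30 that did not pass (adjusted p = 0.17). Without tumor DN replicate 3 it was -1.20 ± 0.23 (adjusted p = 0.00135). Tumor DN replicates 1 and 2, the low ones, had pan-leukocyte means of 12.15 and 11.53 and B cell means of 10.74 and 10.30, against 9.35 and 7.31 in replicate 3 and 8.46 to 8.81 and 5.84 to 6.31 in naive DN cells; the part of these cells in the *Itga8* level was not tested. In BECs and LECs its change was -0.09 and -0.20.

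Markers of other cells were read in the same FRC libraries, where 6.38% of all genes were higher and 4.10% lower. Of 13 pericyte and smooth muscle markers, 3 rose in tumor FRCs, *Mcam* 9.29-fold, *Des* 3.78-fold and *Tagln* 3.65-fold, and the mean of the list went from 9.41 to 10.00 in naive to 10.41 to 10.67 in tumor FRCs. The mean of 8 pan-leukocyte markers went from 6.24 to 7.01 in naive to 7.11 to 8.89 in tumor FRCs, highest in tumor replicate 3, with none of the 8 passing. *Csf1r* and *Cd14* of the 7 myeloid markers rose 1.92-fold and 3.48-fold. Of 8 platelet markers *Pf4* rose 8.80-fold and *Gp1bb* fell 2.41-fold. The mean of 5 epithelial markers was 11.53 to 11.89 in naive and 10.81 to 11.37 in tumor FRCs. That of 3 Schwann cell markers was 9.79 to 10.46 in naive and 9.75 to 10.26 in tumor FRCs. No gene of either list passed. The part of these cells in the changes of *Itga1* and *Itga8* was not tested. The means of the endothelial lists overlapped between the states (BEC markers 7.85 to 9.33 in naive and 8.23 to 8.63 in tumor FRCs, LEC markers 8.32 to 9.65 and 8.76 to 9.42). *Madcam1* was the 1 gene of these lists that rose (4.59-fold). It is an addressin of the BEC list whose protein also marks marginal reticular cells, and the source of its rise was not tested. *Itga7*, the integrin of muscle cells, was at 6.04, 5.97 and 6.14 in naive and 5.65, 5.24 and 6.33 in tumor FRCs.

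The remaining integrins of FRCs did not pass. *Itga2* was at 5.71, 5.92 and 7.11 in naive and 7.41, 7.70 and 6.98 in tumor FRCs, a change of 1.12 ± 0.56 (95% confidence interval -0.04 to 2.28, adjusted p = 0.216). It passed when the odd DN and BEC libraries, which share the estimate of spread, were left out of the fit (adjusted p = 0.0338). *Itga5* changed by 0.46 ± 0.31 (adjusted p = 0.387). *Itgb1* stayed at 9.73, 9.84 and 9.69 in naive and 9.72, 9.59 and 9.97 in tumor FRCs, with a change of 0.01 and a 95% confidence interval of -0.55 to 0.57. *Itga6*, *Itga7*, *Itga9* and *Itgb3* changed by 0.05, -0.31, 0.30 and -0.32 (adjusted p 0.191 to 0.955).

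For *Itgav* in FRCs the probes disagreed. The brightest probe was at 9.34, 9.25 and 10.76 in naive and 8.21, 9.41 and 9.15 in tumor mice, a change of -0.86 ± 0.64 (adjusted p = 0.439). The next brightest, ILMN_1238119, went from 7.78, 7.60 and 8.13 to 9.38, 9.62 and 8.44 without overlap, a change of 1.31 ± 0.43 (adjusted p = 0.0623 over all kept probes). The platform annotation ties ILMN_1238119 to a RefSeq mRNA and the brightest *Itgav* probe to a cDNA clone. *Itga6* also had probes of unlike change in FRCs, 0.05 for the brightest and -1.09 and -0.93 for the others, none of which passed (adjusted p = 0.96, 0.0986 and 0.161).

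**Figure D4:**
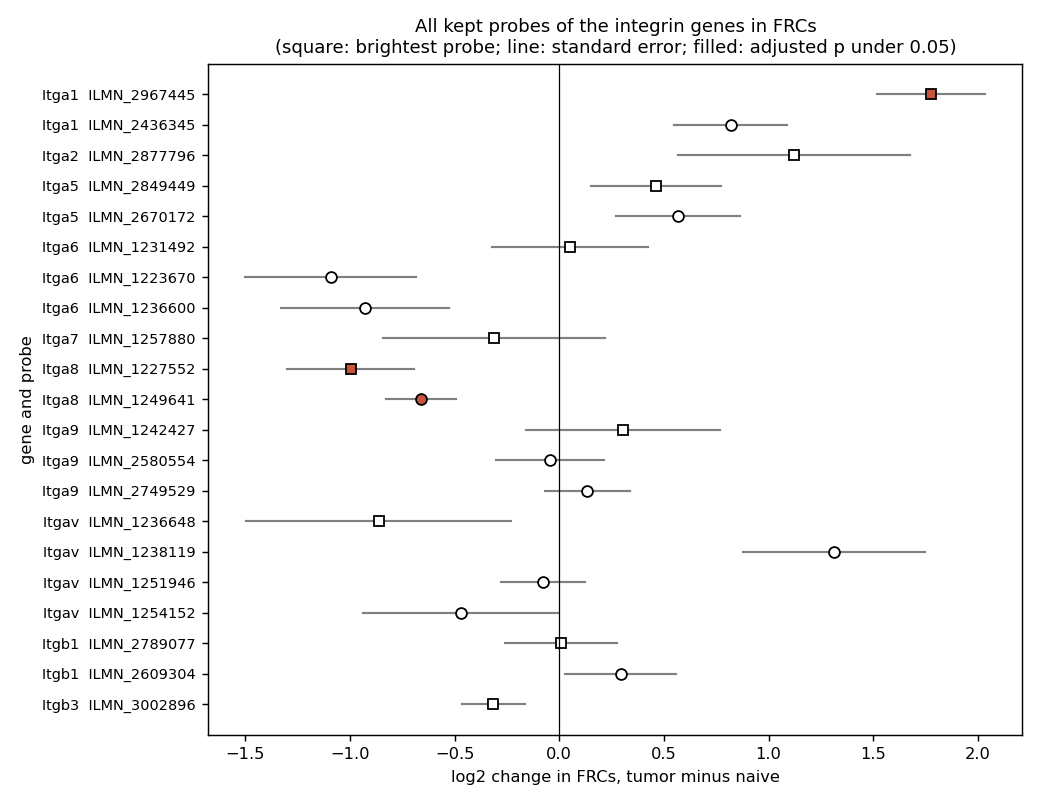
Log2 change in FRCs (tumor minus naive, horizontal axis) of the 21 integrin probes above background, with the standard error as a line; squares are the brightest probe of a gene, circles its other probes, and filled symbols passed at an adjusted p under 0.05 over all kept probes. Both *Itga1* probes lie above 0 and both *Itga8* probes below 0, while the *Itgav* probes lie on both sides.

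In DN cells *Itga9* was at 7.75, 10.47 and 7.91 in naive and 8.89, 9.49 and 10.16 in tumor mice, a change of 0.81 ± 0.47 (adjusted p = 0.314). Without the naive DN library that carried FRC and LEC markers the change was 1.69 ± 0.27 (adjusted p = 0.000601), with tumor DN replicate 3, which carried the same markers and the highest tumor value, still in. Without both libraries it was 1.37 ± 0.23 (adjusted p = 0.000442), and it then exceeded the change in FRCs, BECs and LECs (adjusted p = 0.0362, 0.000974 and 0.00195). This pair was left out after seeing the data, and each of these libraries held the highest *Itga9* value of its state. The 2 other *Itga9* probes, around background in naive DN cells, changed by 0.06 and -0.03 in the DN fraction with all libraries in. In the DN fraction 3 of 9 BEC markers rose in tumor mice, where 7.37% of all genes passed in either direction. They were the endothelial genes *Pecam1*, *Cdh5* and *Flt1* (9.61-fold, 5.46-fold and 5.83-fold). The BEC marker mean was 7.49 to 9.24 in naive and 9.43 to 10.06 in tumor DN cells. The part of endothelial cells in the *Itga9* level was not tested. *Itga7*, the integrin highest in DN cells, was at 10.03, 10.17 and 10.50 in naive and 9.31, 9.72 and 9.68 in tumor mice. The groups did not overlap, but the change of -0.67 ± 0.53 did not pass (adjusted p = 0.486).

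In BECs *Itga9* was lower in all tumor replicates (10.23, 10.70 and 10.95 against 11.15), a change of -0.53 ± 0.47 that did not pass (adjusted p = 0.591). In LECs *Itga9* (13.84, 13.39 and 13.62 against 13.91, 13.97 and 14.05) and *Itgav* (10.56, 10.59 and 10.22 against 11.41, 10.68 and 11.24) were lower and *Itgb3* higher in tumor mice without overlap, with changes of -0.36, -0.65 and 0.13, and none passed (adjusted p = 0.974, 0.932 and 0.967). Groups without overlap were found for 3 of 10 integrins in LECs, 2 in DN cells, 2 in FRCs and 1 in BECs, where 20.6%, 16%, 39.4% and 26% of all genes had them. The collagen receptor *Itga2* and the fibronectin receptor *Itga5* changed by 0.35 and -0.07 in BECs and by -0.05 and 0.21 in LECs. The 95% confidence interval of the *Itgb1* change was -0.49 to 0.62 in BECs, -0.55 to 0.56 in LECs and -0.70 to 0.42 in DN cells.

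The genes around the integrins were read as lists. Of 7 other stromal integrins (*Itga3*, *Itga10*, *Itga11*, *Itgb4*, *Itgb5*, *Itgb6* and *Itgb8*), 5 were tested and none passed in any cell type. Their median change in FRCs was -0.74, and at an unadjusted p under 0.05 there were 2 in FRCs, 1 in BECs and 0 in LECs and DN cells. Of 6 tested integrins of leukocytes and platelets, *Itgb7*, a beta chain of lymphocyte homing receptors, rose in DN cells (5.81-fold, adjusted p = 0.0284). Pan-leukocyte and B cell markers rose there too (4 of 8 and 4 of 5 higher), where 7.37% of all genes passed in either direction.

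The intracellular adhesion machinery (38 genes tested) had 2 genes higher in tumor FRCs and none lower, where 6.38% of all genes were higher. *Actn1*, an actin crosslinker at focal adhesions, rose 2.28-fold (adjusted p = 0.00243) and *Bcar1*, the docking protein p130Cas, 1.88-fold (adjusted p = 0.0206). In DN cells 2 rose and 3 fell, where 7.37% of all genes passed in either direction. The leukocyte members *Fermt3* and *Parvg* went from means of 5.38 and 5.06, near background, to 8.46 and 8.35, and *Fermt2*, the kindlin of stromal cells, and *Itgb1bp1* were 1.66-fold and 1.80-fold lower. None passed in BECs or LECs. The list's median change was -0.05 in FRCs, -0.10 in BECs, 0.01 in LECs and -0.01 in DN cells. Of 12 membrane proteins that associate with integrins, the tetraspanins *Cd82* and *Cd151* rose in FRCs (1.92-fold and 1.55-fold, adjusted p = 0.0214 and 0.0432), where 6.38% of all genes were higher. None of the 12 passed elsewhere.

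Among the ligands, *Postn*, periostin, fell 2.81-fold in tumor FRCs (adjusted p = 0.00035), the only 1 of 15 RGD and *Itga9* ligands to pass there (all genes 10.5%). *Tgfb1* rose 2.11-fold in DN cells, the only 1 of the 15 to pass there (all genes 7.37%). Of 8 collagen genes, *Col4a1* and *Col4a2* passed in LECs, where 0.912% of all genes did. These basement membrane collagens, which *Itga1* binds, rose 1.92-fold and 2.24-fold (adjusted p = 0.0389 and 0.0191). No collagen gene passed in FRCs, where the median change of the 8 was -0.57, or in BECs, where it was 0.94. None of 9 laminin genes passed in any cell type, with a median of -0.32 in FRCs and 0.29 in BECs.

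Over the 24 replicates, which share cell type and slide, the genes most like each integrin were found by Pearson's r. *Itga1* was most like *Sele* (r = 0.93), E-selectin of activated endothelium, and *Itga9* like *Casp1* (r = 0.98). *Itga7* was most like *Ephx3* (0.97) and *Higd1b* (0.95), the latter a pericyte gene, and *Itga6* like *Aqp11* (0.96) and the transcription factor *Mecom* (0.95). *Itgb1* was most like *Cavin1* (0.94), a coat protein of caveolae, *Itga5* like *Dchs1* (0.97), *Itga2* like *Dab1* (0.93), *Itgav* like *Ipo7* (0.93), *Itga8* like *Spg20* (0.86) and *Itgb3* like *Akap12* (0.78). Among the integrins, *Itga5* ran with *Itgb1* (0.81) and *Itga2* (0.79) and against *Itga7* (-0.85).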

How the data were processed

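The log2 value per probe and strip is as deposited by the authors. How it was normalized is not given in the sources used here. The authors also deposited bead files with the intensity of each bead, which served as alternatives. Python 3.11.15 removed beads over 3 MADs from a probe's median and linked 45156 of 45160 complete probes to their bead codes. In R 4.3.3 the 48 strips were quantile normalized and strips averaged per replicate. Probes with 1 symbol and a group mean above the background level (5.57, the mode plus 3 robust SDs) were kept (21784), the brightest per gene was used, and limma 3.58.1 was fitted over 13163 genes and 8 groups with Benjamini-Hochberg adjustment. The threshold was 0.05. Simulated FRC data recovered 58 of 100 changes of 1 log2 unit and 89 of 100 of 2. The probes used had 5 to 44 beads per strip, strips correlated at 0.981 to 0.994 and replicates at 0.925 to 0.994. The number of arrays limits the precision.

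Probes at or below background in every replicate of a group are given as a bound against the background level. The members and lists were chosen with earlier results of these data known. All 10 members are named, and of each list at most the 4 genes with the smallest adjusted p among those that passed in a cell type, with the 3 most alike genes recorded per member. The deviations of naive and tumor samples of the same number correlated at 0.20, 0.23 and 0.15 in LECs and at 0.25, 0.03 and 0.09 in FRCs. Each was above the highest correlation with another number (-0.04, -0.11 and -0.04 in LECs, and -0.09, 0.02 and 0.07 in FRCs). For FRC replicates 2 and 3 the margin was narrow. In BECs and DN cells no number stood out in this way. The alternatives were other normalizations, filters, probes, strips, fits and left-out replicates. The methods' t-test is Student's t-test on the same replicate values.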

Additional observations from a re-analysis of the deposited data

Results flagged for a closer look

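The tumor change of *Itga1* differed between cell types by a test of the difference itself. It was 2.22 log2 units larger in FRCs than in BECs (adjusted p = 0.00528, limma with Benjamini-Hochberg adjustment) and 1.83 larger in FRCs than in LECs (adjusted p = 0.0206). *Itga1* was higher in 3 of 3 tumor FRC replicates than in any naive FRC replicate. The first difference was 1.68 to 2.47 over the alternatives and the second 1.41 to 2.09 for the brightest probe. On the second *Itga1* probe they were 1.14 and 0.98 and did not pass (adjusted p = 0.195 and 0.293). With replicate number as a block neither passed on the brightest probe (adjusted p = 0.0651 and 0.0996). The difference from LECs also did not pass on the first strip alone (adjusted p = 0.0946). Nor did it pass without some single FRC or LEC replicates (adjusted p up to 0.0842). No test for a single outlying sample was run in groups of 3 replicates. Libraries that stood apart were named from their markers, and each replicate was left out in turn.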

How the results depend on the processing

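The count of integrins changed in FRCs (2) was 1 with normexp or no further background correction of the bead files, without a filter on dim probes, on the first or second strip alone and with replicate number as a block, 4 with array weights, 3 without the odd DN and BEC libraries and 0 by the methods' t-test. Leaving out single replicates gave 1 to 2. In BECs it was 0 in all settings but array weights (2), and in LECs 0 in all. In DN cells it was 2 with array weights and 2 without the odd libraries, 2 without replicate 2 of naive and 3 of tumor DN (both alternatives chosen after seeing the data) and 0 to 2 with single replicates left out. The calls between naive cell types (31) numbered 17 by the methods' t-test, 15 of them among the 31, and 27 to 32 with single replicates left out; 14 of the 31 passed under every alternative. Differences of the change between cell types (2) numbered 1 on the first strip alone, 10 with array weights, 0 with the replicate block (*Itga1*, adjusted p = 0.0651 for FRCs against BECs), 5 without the odd libraries, 7 without the 2 DN libraries and 1 to 6 with single replicates left out. In BECs and DN cells the samples share only a number. No integrin value changed sign with a call under these alternatives. Of 24 naive calls with another kept probe, 23 had the same sign on every other probe, the exception being *Itga1* between LECs and DN cells. The t-test gives no value for differences between changes. The cause of these changes was not tested. Depth was set by the arrays: *Itgb3*, *Itga8* and, outside DN cells and BECs, *Itga7* lay within about 1 log2 unit of background in most groups.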
